A study of Gallus gallus with 30 samples.

Results

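The LIM domain genes of muscle examined here were FHL1, FHL2, CSRP1, CSRP2, CSRP3, LDB3, PDLIM3, PDLIM5 and ZYX, 9 genes that encode proteins with the zinc-binding LIM fold. They were found by name: every probe set whose gene symbol in the platform annotation was one of these was kept, which gave 22 of the 38439 probe sets on the array, and 9 of the 13009 genes with a symbol of their own. PDLIM5 had 6 probe sets, CSRP2, LDB3 and ZYX had 3 each, FHL1 and PDLIM3 had 2 each, and CSRP1, CSRP3 and FHL2 had 1 each. All 22 were tested and none was lost to a filter, since no filter on dim probe sets was applied.

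The tissue was Pectoralis major, the breast muscle, of male Arbor Acres broilers, a commercial meat-type line, and of male White Leghorn layers, an egg-type line. Both lines were sampled 1 d after hatching and every 2 w from 2 w to 8 w. They were kept in floor pens at the same temperature and light, and ate the same layer feed, which was therefore not a broiler diet. At each age RNA of 5 randomly chosen males of a line was pooled and measured on 3 Affymetrix Chicken Genome Arrays, so that 30 arrays stood for 10 pools. The arrays of a line and age were taken as repeats of 1 pool, and an SD over 3 arrays measures technical error only. The comparison asks how the 2 lines, which differ in the growth of this muscle, differ in expression.

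LIM domains are protein binding modules, and most LIM proteins of muscle sit where actin filaments are anchored. LDB3, PDLIM3 and PDLIM5 join a PDZ domain to LIM domains and bind alpha-actinin at the Z-disc, the border of the sarcomere. The CSRP and FHL proteins consist mostly of LIM domains, shuttle between filaments and nucleus and act as cofactors of transcription, and zyxin is a focal adhesion protein that moves to actin fibres under strain. CSRP3, the muscle LIM protein, and FHL2 have been studied mainly in the mammalian heart, where both meet titin or its partners.

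The study designed qRT-PCR primers for 3 of the 9 genes. They are printed because FHL2 and 1 of the 3 LDB3 probe sets differed between the lines and CSRP3 had the largest change after 1 d. No primer of ZYX is printed. They are written 5′ to 3′ in lower case.
FHL2 forward: gtttgccatgcagtgcgtc
FHL2 reverse: gggaggtaaagcgttgtccag
CSRP3 forward: ccaaaaagatggttgacgtgg
CSRP3 reverse: gcatgttttgtgccaaggttt
LDB3 forward: tgtgctgcttgtaagaagcca
LDB3 reverse: tggcattttgtgctgaacaaa
The primers are 19 to 21 bases long, and 38.1% to 57.9% of their bases are G or C. The LDB3 pair was listed under the older symbol LOC423610, whose gene number all 3 LDB3 probe sets carry. The sequences of the array's own probes were not used here, so where the primers lie relative to them was not examined. In the annotation of the array, the FHL2 probe set aligned to the minus strand of chromosome 1 from 139413732 to 139453170, and that of CSRP3 to the minus strand of chromosome 5 from 1723543 to 1730719, of the chicken build WUSTL Gallus-gallus-2.1.

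All levels below are RMA signals on a log2 scale, and each fold change is 2 raised to a log2 difference. Each of the 30 arrays had a median of 4.08 to 4.19, and the squared correlation between arrays of a pool across all probe sets was 95.4% to 98.7%. Over the 220 pool values of the 22 probe sets, the SD of the 3 arrays had a median of 0.16. It was over 0.7 in 4 of them, namely LDB3 probe set Gga.13646.1.S1_at in the broiler pool at 6 w and the layer pool at 8 w, and CSRP1 and CSRP2 probe set Gga.665.1.S1_at in the layer pool at 6 w. Genes of fast fibres, 9 measured, had a mean of 11.8 to 12.2 in broilers and 11.7 to 12.0 in layers, and the 6 cardiac muscle markers stood between 3.67 and 3.95 in broilers and 3.65 and 3.79 in layers. The 11 cartilage and bone markers averaged 4.61 to 4.79 in the broiler pools and 4.55 to 4.78 in the layer pools from 2 w on, but 6.08 in the layer pool at 1 d.

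**Figure D1:**
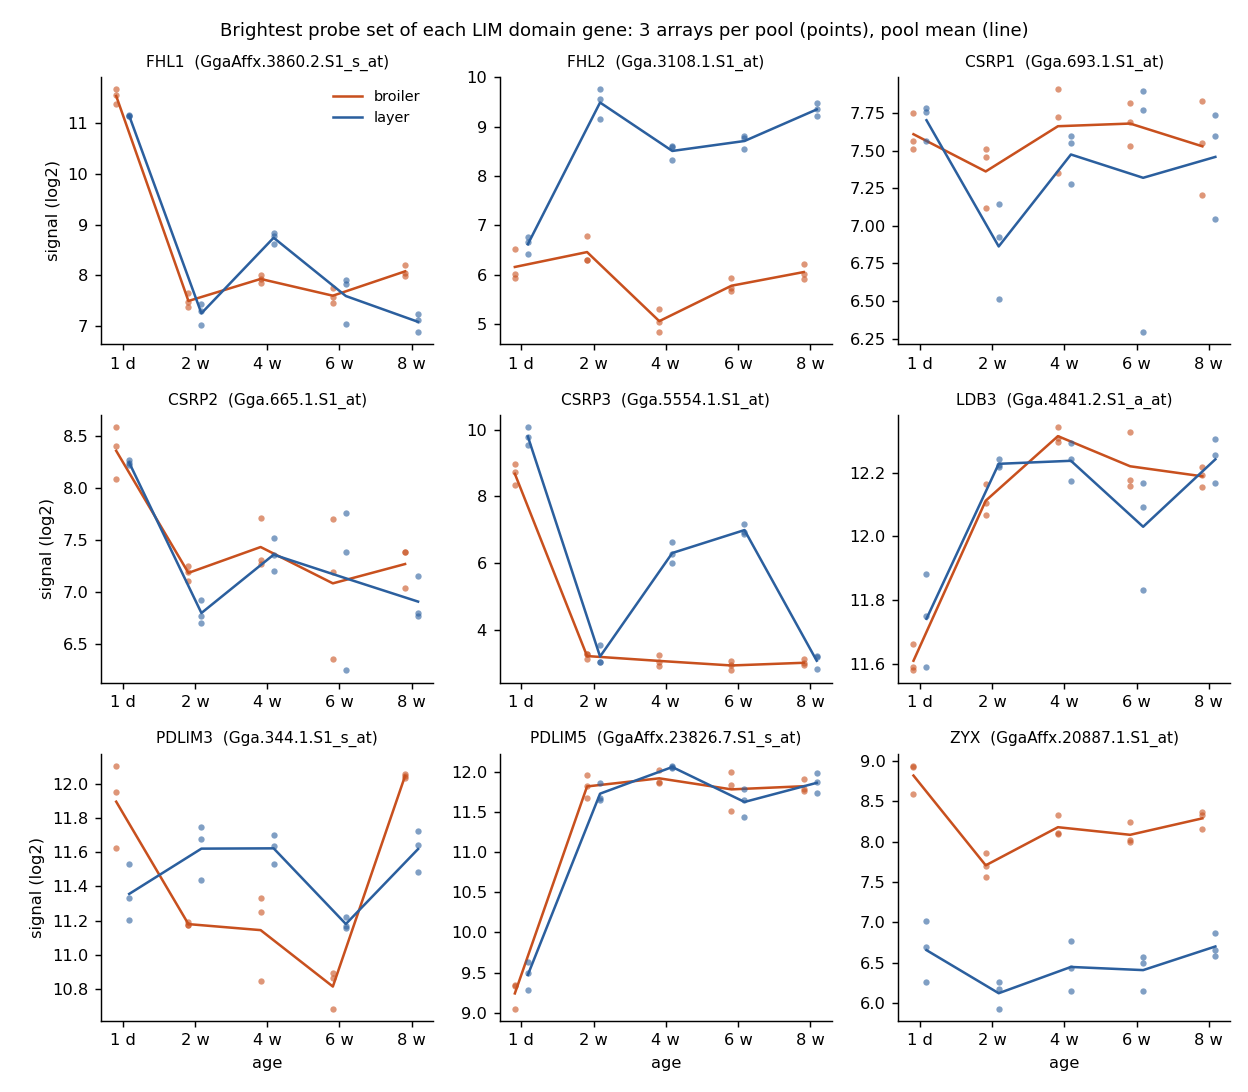
Log2 signal (vertical axis) against age (horizontal axis) for the brightest probe set of each of the 9 genes, with 3 arrays per pool as points and the pool mean as a line, broilers in orange and layers in blue. FHL2 separated the lines from 2 w on, the plotted ZYX probe set at every age, and CSRP3 at 1 d, 4 w and 6 w. The ZYX probe sets that are not plotted had no line difference that passed. FHL1, CSRP2 and PDLIM5 changed in both lines after 1 d.

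Between the lines, 3 of the 22 probe sets differed over the 5 ages at an adjusted p under 0.05 from limma on the 10 pool means, 1 each of ZYX, LDB3 and FHL2. This is 13.6% of them, where 1.35% of all probe sets passed. The 9 genes were chosen with earlier results of these data known, and the study itself names FHL2 as lower in broilers. This share and those below are therefore no test of the genes as a set. The probe sets of ZYX and LDB3 were higher in broilers, as 0.630% of all probe sets were, and that of FHL2 was lower, as 0.723% of all were. For these 3 probe sets the 5 broiler pools and the 5 layer pools did not overlap, and that held for 1.39% of all probe sets. The median difference over the 22 was -0.02 on the log2 scale, against 0.00 over all 38439, and 6 of the 22 had an unadjusted p under 0.05. The last of these 6 ranked 5144 by p among all 38439 probe sets, so at least that many were under 0.05. The unadjusted counts of line differences in the gene lists below stand against the same number. In bulk muscle, fewer cells of a type and less RNA per cell cannot be told apart.

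After 1 d more of them moved. The mean of 2 w to 8 w, taken over both lines, differed from 1 d for 12 of the 22 probe sets, which is 54.5%, beside 35.0% of all probe sets. Of these, 6 rose and 6 fell, against 17.1% and 17.9% of all. They belonged to 6 genes, with all changes up in LDB3 and PDLIM5 and all changes down in FHL1, CSRP2, CSRP3 and ZYX. CSRP1, PDLIM3 and FHL2 had no probe set past the threshold in this test. With 2 pools at 1 d, 1 of each line, the test has little with which to measure the spread at that age. Markers of other cells moved over the same step: 9 of 11 fibroblast and matrix markers fell (list median -0.62), 4 of 7 nerve markers fell (-0.23) and 7 of 9 immune markers rose (0.44). Of the 8 markers each of fat and endothelium, 2 and 1 rose and 2 and 1 fell, and 2 of 5 blood cell markers fell. Their part in the changes of the LIM genes was not tested.

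**Figure D2:**
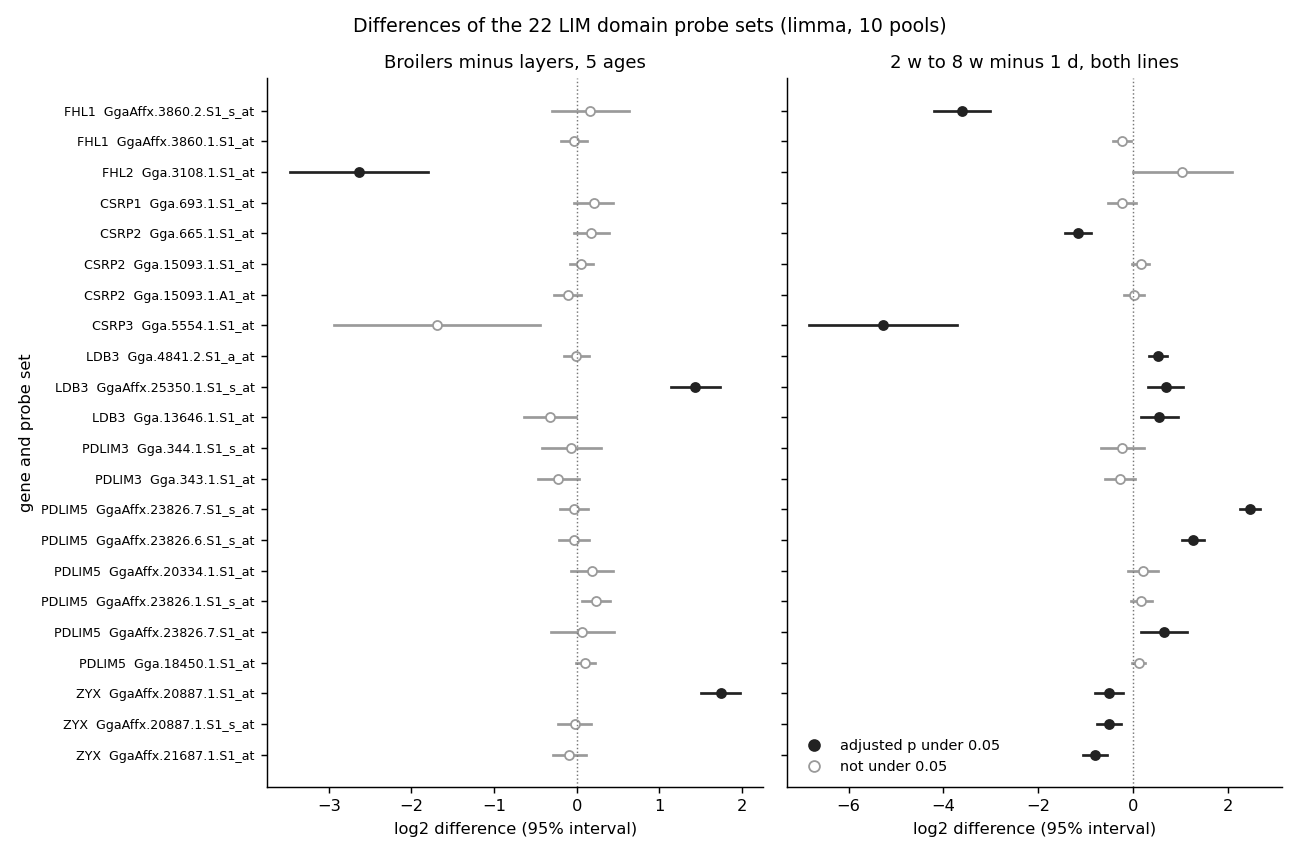
Log2 differences of the 22 probe sets from limma with 95% intervals (horizontal axes), broilers minus layers on the left and 2 w to 8 w minus 1 d on the right, with filled points at an adjusted p under 0.05. On the left the FHL2 probe set lies at -2.64, and 1 probe set each of ZYX and LDB3 at 1.75 and 1.44. On the right CSRP3 and FHL1 lie lowest, at -5.27 and -3.60, and PDLIM5 reaches 2.47.

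Among the FHL genes, whose proteins are chains of LIM domains, FHL2 was the gene with the largest line difference of the 9. In broilers its signal was 6.16, 6.46, 5.06, 5.78 and 6.05 at the 5 ages from 1 d to 8 w. In layers it was 6.62, 9.49, 8.51, 8.71 and 9.35 at the same ages. Both lines were thus low at 1 d, and from 2 w on the layer pools stood apart from every broiler pool.

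The FHL2 signal in broilers was 1.38-fold lower than in layers at 1 d, where the arrays of the pools overlapped, and 8.19-fold, 10.9-fold, 7.65-fold and 9.84-fold lower at the 4 later ages in turn, where they did not. The SD of the 3 arrays was at most 0.33 in any pool. Over the 5 ages the log2 difference was -2.64 ± 0.37 (SE, 5 pools per line, adjusted p = 0.0151 from limma), a 6.22-fold lower signal in broilers. The call was lost without any 1 of the 8 pools of 2 w to 8 w, with a difference of -2.56 to -2.43 and an adjusted p of 0.0532 to 0.0692, and the difference was -3.18 (adjusted p = 2.24e-05) without both pools of 1 d.

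The lines lay closer in FHL2 at 1 d than at the 4 later ages. Broilers minus layers was less negative at 1 d, by 2.72 ± 0.26 on the log2 scale (SE, adjusted p = 0.00272 from limma). It was the 1 probe set of the 22 with such a change, 4.55% of them, where 0.294% of all probe sets passed. Of the 22, 5 had an unadjusted p under 0.05. The last of these 5 ranked 2601 by p among all probe sets, so at least that many were under 0.05. Within layers FHL2 averaged 9.02 over the later ages, 5.28-fold above the pool at 1 d, and within broilers 5.84, 1.25-fold below it. This test holds 1 pool of each line at 1 d and takes its spread from the later pools. Of the 11 cartilage and bone markers, COL9A3, MATN3, ACAN and SPP1 passed the same test with the other sign, and their levels were raised in 1 d layers, and their part in the result was not tested.

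FHL1, a protein of sarcomere and membrane that is abundant in mammalian skeletal muscle, showed an age change in both lines. Its bright probe set GgaAffx.3860.2.S1_s_at stood at 11.52, 7.50, 7.93, 7.60 and 8.08 in broilers from 1 d to 8 w, and at 11.13, 7.26, 8.74, 7.60 and 7.09 in layers. The 2 pools at 1 d were the highest of the 10. From 2 w on the signal was lower by 3.60 ± 0.26 (SE, adjusted p = 1.32e-05), a 12.2-fold fall, made up of 3.74 in broilers and 3.46 in layers.

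The line difference of FHL1 varied in sign. Broilers were 1.31-fold higher than layers at 1 d, 1.75-fold lower at 4 w and 1.99-fold higher at 8 w, with no overlap of arrays at these ages, and the arrays overlapped at 2 w and 6 w. The difference over the 5 ages was 0.16 ± 0.21 (SE, 95% interval -0.30 to 0.63, adjusted p = 0.811). Probe set GgaAffx.3860.1.S1_at stayed between 2.81 and 3.23 in all 10 pools, below the median of every array, and neither its line difference (-0.03) nor its change after 1 d (-0.23) passed.

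In the CSRP family, CSRP3 encodes the muscle LIM protein of the Z-disc, which in mammals is expressed in heart and slow fibres. The broiler pools had a signal of 8.68 at 1 d and then 3.21, 3.06, 2.93 and 3.01 at the later ages. The layer pools had 9.80 at 1 d, then 3.19, 6.30, 6.99 and 3.07. Apart from the pools at 1 d, the layer pools at 4 w and 6 w were the only ones above 3.3, and the other 6 later pools lay below the median of every array.

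CSRP3 fell after 1 d by 5.27 ± 0.69 on the log2 scale over both lines (SE, adjusted p = 4.34e-04), 38.6-fold in signal. The fall was 5.63 in broilers and 4.91 in layers. Broilers had a 2.17-fold lower signal than layers at 1 d, and one 9.44-fold and 16.7-fold lower at 4 w and 6 w, in each case with arrays that did not overlap. At 2 w and 8 w both lines were low and their arrays overlapped. No detection call was used, so a fold against a signal below the array medians, as those of 4 w and 6 w and the fall after 1 d are, is at best a lower bound. Over the 5 ages the difference was -1.69 ± 0.55 (SE, 95% interval -2.94 to -0.45), which did not pass (adjusted p = 0.193).

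Slow-type genes that the study reports as higher in layers shared part of this course, and they were taken because the study names them. Of all 14 slow fibre genes measured, broilers were higher in 8 over the 5 ages, with a median line difference of 0.02. MB, which encodes the oxygen store myoglobin, had 4.63, 4.91, 4.97 and 6.07 in broilers from 2 w to 8 w, and 5.49, 8.24, 7.74 and 5.84 in layers. MYL10, a myosin regulatory light chain that the study lists by the gene number LOC417506 as an L2B light chain, had 3.14, 3.36, 3.37 and 4.22 in broilers and 3.11, 9.38, 5.87 and 3.76 in layers at the same ages. Both genes were highest in the 4 w layers among these pools. The mean of the 2 w and 8 w layers served as a base for the layer pool at 4 w, which exceeded it by 3.17 in CSRP3, 2.58 in MB, 2.78 in TNNI1, 3.62 in MYH7B, 4.34 in MYL3 and 5.95 in MYL10. The base lay below the array medians for CSRP3, TNNI1, MYL3 and MYL10, so that their values are at best lower bounds, and the sizes were not compared between genes. TNNI1, MYH7B and MYL3 encode slow troponin I, a slow-type myosin heavy chain and a slow myosin light chain.

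At 6 w the layer pool exceeded the same base by 3.86 in CSRP3, 2.08 in MB and 2.44 in MYL10, and by 0.19 in TNNI1, 0.12 in MYH7B and 0.38 in MYL3. In the broiler pools at 4 w and 6 w all 6 genes lay between -0.44 and 0.07 of the mean of their own 2 w and 8 w pools. The line differences over the 5 ages did not pass for MB (-1.33 ± 0.49, adjusted p = 0.242), TNNI1 (-0.70, adjusted p = 0.430), MYH7B (-0.91, adjusted p = 0.457), MYL3 (-1.17, adjusted p = 0.363) or MYL10 (-1.68, adjusted p = 0.385). Each high value rests on 1 layer pool of 5 birds.

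**Figure D3:**
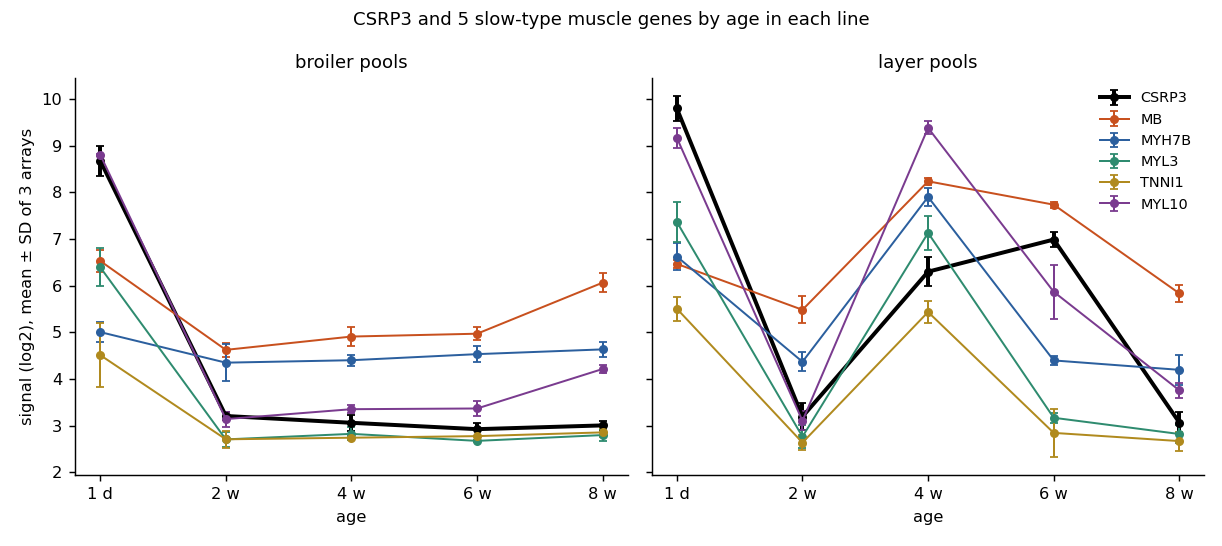
Log2 signal (vertical axis, mean ± SD of 3 arrays) against age (horizontal axis) of CSRP3 and 5 slow-type genes in broiler pools on the left and layer pools on the right. In broilers CSRP3 stays between 2.93 and 3.21 from 2 w on, and in layers it stands at 6.30 and 6.99 at 4 w and 6 w, MB at 8.24 and 7.74 and MYL10 at 9.38 and 5.87, and the other 3 are high at 4 w.

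CSRP2, a LIM protein known from smooth muscle and immature cells of mammals, fell in both lines. Probe set Gga.665.1.S1_at had 8.36, 7.18, 7.43, 7.08 and 7.27 in broilers from 1 d to 8 w, and 8.24, 6.80, 7.36, 7.13 and 6.91 in layers. The change after 1 d was -1.16 ± 0.12 (SE, adjusted p = 1.06e-04), a 2.23-fold fall, and the line difference was 0.18 ± 0.10 (SE, adjusted p = 0.457). The other CSRP2 probe sets, Gga.15093.1.S1_at and Gga.15093.1.A1_at, stayed between 3.64 and 4.21 in all pools and passed no test.

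CSRP1, which binds alpha-actinin and zyxin, moved little. Its pool means lay between 7.36 and 7.68 in broilers and between 6.86 and 7.70 in layers. Broilers were higher at 4 of 5 ages, at most 1.41-fold at 2 w, where the arrays overlapped as they did at every age. Neither the line difference of 0.21 ± 0.10 (SE, 95% interval -0.03 to 0.44, adjusted p = 0.420) nor the change after 1 d of -0.24 ± 0.13 (SE, adjusted p = 0.181) passed.

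Markers of smooth muscle and pericytes, in which CSRP1 and CSRP2 are also expressed, are given beside them. The 8 measured markers averaged 6.96 to 7.23 in the broiler pools and 6.69 to 7.17 in the layer pools. Of the 8, 3 fell after 1 d, MYH11 (-0.90), MYLK (-0.69) and TAGLN (-0.31), and SYNM and RGS5 rose by 1.98 and 0.50. Of all probe sets 17.9% fell and 17.1% rose in this test. SYNM was in this list but not in the narrower set of markers laid down for these cells, so its rise was not assigned to them. No line difference passed among them (1 at an unadjusted p under 0.05), and their part in the CSRP2 change was not tested.

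Of the PDZ-LIM genes, LDB3 encodes the Z-disc protein known as Cypher or ZASP, and its 3 probe sets did not behave alike. GgaAffx.25350.1.S1_s_at had 8.71, 9.58, 9.65, 9.69 and 10.08 in broilers from 1 d to 8 w, and 7.83, 8.20, 8.08, 8.24 and 8.18 in layers. The broiler pools were all above the layer pools, by 1.84-fold at 1 d and 2.60-fold, 2.97-fold, 2.74-fold and 3.74-fold at the later ages, with no overlap of arrays at any age. The difference over the ages was 1.44 ± 0.13 (SE, adjusted p = 0.00392). Among the alternatives run on this probe set, the call was lost only without the age term in the model (adjusted p = 0.0603). With the 3 LDB3 probe sets averaged, the difference of 0.37 did not pass (limma, adjusted p = 0.0793).

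The brightest LDB3 probe set, Gga.4841.2.S1_a_at, had 11.61 to 12.31 in broilers and 11.74 to 12.24 in layers, with a line difference of -0.01 ± 0.07 (SE, 95% interval -0.16 to 0.14, adjusted p = 0.980). Gga.13646.1.S1_at had 4.45 to 5.55 in broilers and 4.54 to 6.07 in layers and a difference of -0.32 ± 0.14 (SE, adjusted p = 0.330). Neither difference passed. The difference between lines of GgaAffx.25350.1.S1_s_at exceeded that of Gga.4841.2.S1_a_at by 1.44 ± 0.35 on average and that of Gga.13646.1.S1_at by 1.76 ± 0.66 (SD over 5 ages), with the same sign at all 5 ages. These pairs were chosen after their values were seen and were not tested.

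After 1 d all 3 LDB3 probe sets rose. Gga.4841.2.S1_a_at rose by 0.52 ± 0.08 (adjusted p = 0.00141), GgaAffx.25350.1.S1_s_at by 0.69 ± 0.16 (adjusted p = 0.0108) and Gga.13646.1.S1_at by 0.56 ± 0.17 (SE, adjusted p = 0.0335). The second rose by 1.04 in broilers, 2.05-fold, and by 0.34 in layers, 1.27-fold. Without the broiler pool of 1 d, which leaves the layer pool alone at that age, it did not pass, at 0.34. The third was no longer called without the broiler pool of 1 d or 4 w, or the layer pool of 1 d or 6 w, at 0.53 to 0.59 (adjusted p = 0.0565 to 0.164).

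**Figure D4:**
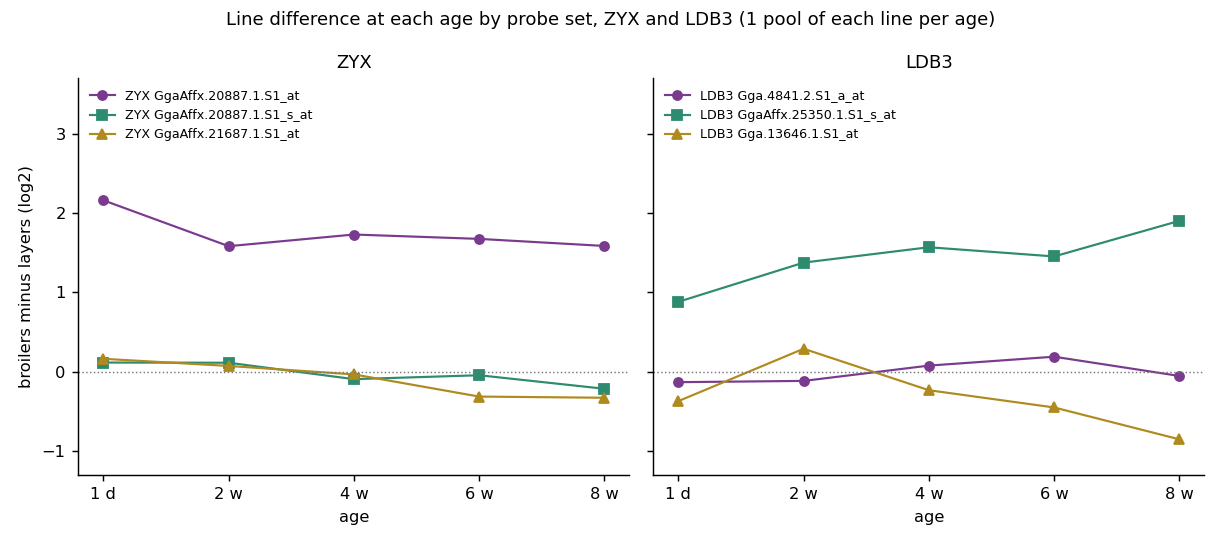
Broilers minus layers in log2 units (vertical axis) at each age (horizontal axis) for the 3 probe sets of ZYX on the left and of LDB3 on the right, with each point 1 pool of broilers against 1 pool of layers. One probe set of each gene lies above 0 at all 5 ages, ZYX at 1.58 to 2.16 and LDB3 at 0.88 to 1.90, and the others lie between -0.85 and 0.29.

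PDLIM5, also named ENH, joins alpha-actinin to protein kinases. Its brightest probe set, GgaAffx.23826.7.S1_s_at, had 9.24 in the broiler pool at 1 d and 11.78 to 11.92 in the later broiler pools, and 9.47 in the layer pool at 1 d and 11.62 to 12.06 in the later layer pools. The 8 later pools were all above both pools of 1 d. The rise was 2.47 ± 0.09 (SE, adjusted p = 5.47e-07), 5.53-fold, and the lines differed by -0.03 ± 0.08 (SE, adjusted p = 0.906).

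GgaAffx.23826.6.S1_s_at rose by 1.27 ± 0.10 (SE, adjusted p = 2.42e-05), 2.41-fold, with 5.94 at 1 d and 7.04 to 7.32 later in broilers, and 5.93 and then 7.03 to 7.48 in layers. The dim GgaAffx.23826.7.S1_at had 3.46, 4.07, 3.67, 3.46 and 3.44 in broilers from 1 d to 8 w, and 2.66, 3.71, 3.55, 3.78 and 4.04 in layers, so that the lowest pool was that of 1 d layers. It rose by 0.66 ± 0.21 (SE, adjusted p = 0.0392), by 0.20 in broilers and 1.12 in layers. This last call was lost without the layer pool of 1 d, at 0.20 (adjusted p = 0.571), and without the broiler pools of 2 w or 4 w or the layer pools of 4 w or 6 w, at 0.60 to 0.67 (adjusted p = 0.0581 to 0.0713). The other 3 probe sets of PDLIM5 lay between 2.95 and 5.31 in all pools and passed neither test.

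PDLIM3, or ALP, binds alpha-actinin at the Z-disc and passed no test. Probe set Gga.344.1.S1_s_at had 11.89, 11.18, 11.14, 10.81 and 12.04 in broilers from 1 d to 8 w, and 11.36, 11.62, 11.62, 11.18 and 11.62 in layers. Broilers were higher at 1 d and 8 w, 1.45-fold and 1.34-fold, and lower at the 3 ages between, 1.29-fold to 1.39-fold, with no overlap of arrays at any age. The average difference was -0.06 ± 0.16 (SE, 95% interval -0.42 to 0.29, adjusted p = 0.916), and the change after 1 d was -0.22 ± 0.20 (SE, adjusted p = 0.407). Gga.343.1.S1_at lay between 9.27 and 10.13 in broilers and between 9.77 and 10.23 in layers, with a line difference of -0.22 ± 0.11 (SE, adjusted p = 0.419).

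ZYX encodes zyxin, which recruits actin assembly factors of the Ena and VASP family to focal adhesions. Its probe set GgaAffx.20887.1.S1_at had the smallest p of all 38439 in the line comparison. The broiler pools stood at 8.82, 7.71, 8.18, 8.08 and 8.29 from 1 d to 8 w, and the layer pools at 6.66, 6.12, 6.45, 6.41 and 6.70. Every broiler pool was above every layer pool, by 4.48-fold at 1 d and 3.0-fold to 3.3-fold at later ages. The difference was 1.75 ± 0.10 (SE, adjusted p = 0.00126), 3.36-fold, and it passed under all 27 alternatives, with an adjusted p of at most 0.0164.

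The other probe sets of ZYX had differences near 0. In the naming of the array, a probe set ending in _at matches 1 transcript and one ending in _s_at several related ones. The called probe set was of the _at kind in ZYX and of the _s_at kind in LDB3. Why probe sets of a gene differed was not tested, and the line call of each of these genes holds for 1 probe set only. GgaAffx.20887.1.S1_s_at had 6.95 to 7.71 in broilers and 6.84 to 7.59 in layers, a difference of -0.02 ± 0.09 (SE, 95% interval -0.22 to 0.17, adjusted p = 0.945). GgaAffx.21687.1.S1_at had 4.18 to 5.30 in broilers and 4.21 to 5.13 in layers, a difference of -0.09 ± 0.09 (SE, 95% interval -0.29 to 0.12, adjusted p = 0.754). The difference between lines of GgaAffx.20887.1.S1_at exceeded theirs by 1.77 ± 0.21 and 1.84 ± 0.20 (SD over 5 ages), and it did so at all 5 ages. These pairs too were chosen after their values were seen and were not tested. With the probe sets of a gene averaged, ZYX (0.55, adjusted p = 0.0348) and FHL2 (adjusted p = 0.0344) passed and LDB3 (0.37, adjusted p = 0.0793) did not. This is 2 of 9 genes, where 1.15% of all 13009 passed.

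After 1 d the 3 ZYX probe sets fell together. GgaAffx.20887.1.S1_at fell by 0.49 ± 0.13 (SE, adjusted p = 0.0173), GgaAffx.20887.1.S1_s_at fell by 0.51 ± 0.11 (SE, adjusted p = 0.00665) and GgaAffx.21687.1.S1_at fell by 0.79 ± 0.11 (SE, adjusted p = 7.02e-04). In broilers and layers in turn, the changes were -0.75 and -0.24 for the first, -0.60 and -0.42 for the second, and -0.95 and -0.64 for the third. Without the broiler pool of 1 d, which leaves the layer pool alone at that age, the first 2 did not pass, at -0.24 and -0.42.

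From 2 w to 8 w none of the 22 probe sets had a slope with age that passed, where 0.354% of all probe sets did, and 4 had an unadjusted p under 0.05. These were ZYX probe sets GgaAffx.20887.1.S1_at at 0.08 and GgaAffx.20887.1.S1_s_at at 0.06 per week, LDB3 probe set Gga.13646.1.S1_at at 0.10 and PDLIM5 probe set GgaAffx.23826.6.S1_s_at at -0.05. The last of these 4 ranked 3202 by p among all probe sets, so at least that many were under 0.05. No slope differed between the lines either, and that test called 0.00% of all probe sets. At an unadjusted p under 0.05 it had 3 of the 22. They were LDB3 probe set Gga.13646.1.S1_at (-0.18 per week), PDLIM5 probe set GgaAffx.23826.7.S1_at (-0.17) and PDLIM3 probe set Gga.344.1.S1_s_at (0.14). The last of these 3 ranked 353 by p among all probe sets, so at least that many were under 0.05.

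Over the 10 pool means, with 1 probe set per gene, some of the 9 genes ran together. The largest of the 36 correlations were 0.98 between FHL1 and CSRP2 and 0.96 between LDB3 and PDLIM5, and the lowest were -0.93 between FHL1 and PDLIM5 and -0.90 between CSRP2 and PDLIM5. The step from 1 d to 2 w is shared by these genes. FHL2 and the brightest ZYX probe set, which differed between lines in opposite directions, had an r of -0.85. The other ZYX probe sets had no line difference that passed and were not used here. The one used was the brightest over both lines, at 7.34 against 7.25 for GgaAffx.20887.1.S1_s_at. In layers alone it was the dimmer of these, at 6.47 against 7.26, so its choice depended on the line difference. FHL2 and CSRP3 had an r of 0.01. The points share ages and lines, and the values describe these 10 pools only.

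Candidates were 4512 probe sets of other genes with a mean of at least 5 and an SD of at least 0.3. Those most like the brightest probe set of each gene over the 10 pools were as follows. For ZYX this was the 1 probe set that differed between lines. TCF25, DIMT1 and STK24 were most like FHL2, with an r of 0.96, 0.93 and 0.90, and LOC418108, IL1RAP and SMG6 most like CSRP3, with 0.97, 0.94 and 0.93. CRYZL1, SEC14L1 and IL13RA1 ran with ZYX at 0.96, 0.95 and 0.94. PDLIM5 ran with CAPZA2, which encodes an actin capping protein, and TPM1, a tropomyosin, both at 0.997, and with FRMD5 at 0.996. FHL1 had LMOD2, a leiomodin of thin filaments, KAZALD1 and PTPN13 at 0.97 to 0.98, and CSRP2 had SERPINE2, CTNNA1 and REEP3 at 0.97 to 0.98. CARNMT1, MSI2 and PELO ran with LDB3 at 0.98 to 0.99, S100A6, COL8A1 and KLF6 with CSRP1 at 0.89 to 0.91, and FGF1, TTLL9 and SYNE2 with PDLIM3 at 0.76 to 0.82. All were picked as the highest r of the candidates over 10 pools and were not tested. The step after 1 d, at which 35.0% of all probe sets changed, enters each r, and that of PDLIM5 above all. For CSRP1, PDLIM3 and FHL2 that step did not pass. The line difference also enters the r of FHL2 and ZYX, whose probe sets used here differed between the lines.

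Of 39 other LIM domain genes 34 were measured, with 1 probe set each. None passed in the line comparison by limma, and 9 had an unadjusted p under 0.05. PDLIM4, a PDZ-LIM protein also named RIL, had the largest difference, 0.53 ± 0.11 (SE, adjusted p = 0.0543). LMO4, a LIM-only cofactor of transcription, was at -0.41 ± 0.10 (SE, adjusted p = 0.0957) and CRIP1, a small LIM protein, at 0.40 ± 0.10 (SE, adjusted p = 0.0861). The median difference over the 34 was 0.05, and broilers were higher in 23 of them.

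After 1 d 15 of the 34 other LIM genes fell and 5 rose, with a median change of -0.14, against 0.05 over all probe sets. Of all probe sets 17.9% fell and 17.1% rose in this test. The counts of falls and rises in the lists below stand against the same shares. The falls were led by LMO7 (-2.00, adjusted p = 4.39e-06), which links adherens junctions to actin, ABLIM1 (-1.43) and NRAP (-1.02), a protein of myofibril assembly. FHL3, a relative of FHL1 and FHL2, fell by 0.99, and the rises were LMO4 (0.74), LIMD1 (0.63), FHL5 (0.56), LIMCH1 (0.41) and FBLIM1 (0.28).

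Some partners of these proteins changed after 1 d, and no line difference among them passed. Of 23 measured Z-disc and titin partners none differed between lines in limma (5 at an unadjusted p under 0.05), 11 rose after 1 d and 6 fell. The line difference was 0.58 ± 0.27 for MYOZ1 (SE, adjusted p = 0.383) and 0.49 ± 0.17 for FLNC (SE, adjusted p = 0.206). MYOZ3, which encodes a calsarcin that binds LDB3, rose by 4.27 and MYOZ2, its slow and cardiac relative, fell by 3.18. Of 18 focal adhesion partners none differed between lines (6 at an unadjusted p under 0.05), with TLN2, a talin, at -0.52 ± 0.14 (SE, adjusted p = 0.132). In this list 10 fell after 1 d and 1 rose. ENAH, the Ena protein bound by zyxin, fell by 2.30, as FERMT2, a kindlin, fell by 1.90, and ITGA7, a laminin-binding integrin of muscle, rose by 1.22.

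Genes of the response to stretch and of the factor SRF, 19 measured, had no line call and 9 at an unadjusted p under 0.05. After 1 d 4 of them rose and 7 fell. ANKRD1, a titin-linked stretch protein, was at 0.70 ± 0.17 (SE, adjusted p = 0.0942), SMPX at 0.83 ± 0.19 (SE, adjusted p = 0.0769) and ACTC1 at 0.67 ± 0.20 (SE, adjusted p = 0.145). Of the 14 slow fibre genes none differed between lines (2 at an unadjusted p under 0.05), 8 fell after 1 d and 2 rose. Of the 9 fast fibre genes MYLPF, the regulatory light chain, was higher in broilers by 0.85 ± 0.08 (SE, adjusted p = 0.00434). No marker of endothelium (8 measured), fat (8), nerve (7), fibroblasts (11), immune cells (9), blood cells (5), cartilage (11) or cardiac muscle (6) had a line call, and at an unadjusted p under 0.05 these lists held 2, 3, 2, 3, 0, 0, 1 and 0 in that order.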

How the data were processed

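The authors hybridised Pectoralis major RNA to 30 Affymetrix Chicken Genome Arrays and normalized them with RMA, and the deposited values are log2 signals, used as they are. The authors also made present calls with MAS5, which were not used here. Versions of RMA and MAS5: not given in the sources used here. RMA fits probe effects per probe set and equalises array distributions, so levels of different probe sets are only roughly comparable, and they served to choose the brightest probe set of a gene and to call a signal bright or dim, with no test. Arrays have no depth, and precision is limited by their number and by the 10 pools.

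Of 38535 probe sets in the table, 96 were controls and not used. In the platform annotation 27168 of the others had 1 symbol, 177 several and 11094 none, and 26853 were found in RefSeq genes of GRCg7b, used for names only. Pool means of the 3 arrays entered a model in limma 3.58.1 (R 4.3.3) with age as a factor and line, an intensity trend in the variance, and Benjamini-Hochberg adjustment over 38439 probe sets and a threshold of 0.05. The later ages were set against 1 d and the slope from 2 w to 8 w taken in the same fit, and further terms gave the line difference at 1 d and the line by slope. No single age was tested, since it holds 1 pool per line. The spread between birds was not measured, nor that between pools of the same line and age. The p-values rest on what the terms of each model leave over in the pool means. In the main model this mixes error between pools with any change of the line difference from age to age.

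Named were all probe sets of the 9 genes. Of each list they were the genes under the threshold for the line difference, or else up to 3 with the largest difference, and for age changes some of those past the threshold, chosen after their values were seen. Also named were the 3 genes most like each of the 9 and the slow-type genes of the study, with its myosin L2B matched as MYL10 by gene number after earlier results were seen. A further gene is not reported here. In all, 199 of 233 list entries were measured, with the brightest probe set per gene. The members and lists were chosen with earlier results of these data known. On simulated data with 38439 probe sets, 92 of 100 line differences of 1 and 99 of 100 of 2 were recovered, with 9 unchanged ones called. For the line difference at 1 d these were 27, 79 and 6, and for the line by slope, as a change over the 6 weeks, 0, 7 and 0. Alternatives covered the unit of replication, a replicate block, normalization, the variance prior, a filter on dim probe sets, the age term, gene means and each replicate number (10 arrays at once), age and pool left out.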

Additional observations from a re-analysis of the deposited data

Results flagged for a closer look

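The line difference of FHL2 at 1 d stood apart from that of the later ages, by 2.72 on the log2 scale (limma, adjusted p = 0.00272). The lines differed by -0.46, broilers minus layers, at 1 d and by -3.45 to -2.94 from 2 w on, and the change passed in all 23 alternatives, at 2.56 to 2.89. The contrast has 1 pool of each line at 1 d, so the spread between pools at that age was not measured.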

How the results depend on the processing

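Counts below are of the 22 LIM domain probe sets past an adjusted p of 0.05. For the line difference 3 became 1 without the age term (0.0442% of all probe sets called), and 3 genes became 2 with the probe sets of a gene averaged. With the arrays as independent samples, no block, the line difference had 4 in place of 3 (10.4% of all called). The change after 1 d had 15 in place of 12 (46.1%) and the slope 2 in place of 0 (5.14%). The line difference at 1 d against later ages had 4 in place of 1 (2.61%), and the line by slope 1 in place of 0 (0.406%). With the pool as a random block the line difference had 4 (8.86%) and the change after 1 d 15 (42.7%). In that fit the slope had 1 (4.09%) and the line difference at 1 d had 4 (2.39%). The correlation within pools that it estimated was 0.05 in the main model and 0.01 with the term for 1 d. The fit therefore treated the arrays nearly as independent samples. Leaving out a replicate number, an age or a pool gave 2 to 3 for the line difference (0.333% to 1.98% of all called). It gave 0 for the slope and, with both pools of 1 d kept, 1 for the line difference at 1 d. For the line by slope only a replicate number was left out, which gave 0, and no age or pool was. For the change after 1 d, where 12 were called, leaving out a replicate number, an age or a pool gave 10 to 12 with both pools of 1 d kept (26.5% to 35.8% of all called). Without 1 of these pools that test has 1 pool at 1 d, and no count is given. Of the 3 line calls ZYX passed in every alternative, LDB3 in 26 of 27 and FHL2 in 13 of 27, with an adjusted p of 0.0962 under robust eBayes and 0.114 without the age term. The 12 calls after 1 d passed in 275 of 299 fits, 7 of them in each, and the ZYX probe set GgaAffx.20887.1.S1_at also missed with quantile normalization (-0.38, adjusted p = 0.0624), without replicate 1 (0.0603) and without both 2 w pools (0.0733). LDB3 probe set Gga.13646.1.S1_at also missed without replicate 2 or 3 or both pools of 4 w or 8 w, at 0.40 to 0.46, and PDLIM5 probe set GgaAffx.23826.7.S1_at without replicate 2, both pools of 2 w or 4 w, the trend, or with robust eBayes, at 0.60 to 0.69. No called value changed sign. The causes of these losses were not tested.

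With the array number as a replicate block on the 30 arrays, the line difference had 6 calls (11.5% of all called) and the change after 1 d 15 (47.6%). The slope had 3 (6.06%), the line difference at 1 d 4 (3.18%) and the line by slope 2 (0.713%). Arrays of the same number in both lines had correlated deviations with a median r of 0.33 over 15 pairs, from -0.39 to 0.50, and 12 were over 0.1. Of the 15 broiler arrays 12 correlated best with the layer array of their own number, a hint from the data and not from the design. The array numbers were therefore not taken as pairs.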
